A study of Mus musculus with 17 samples.

Results

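The 9 genes described here, Pf4, Itga2b, Itgb3, Gp1ba, Gp1bb, Gp5, Gp9, Vwf and Ppbp, encode proteins of megakaryocytes and blood platelets. They were chosen by name, with earlier results of these data known, and are 9 of the 28600 genes in the count tables of both models. RNA-seq had been carried out on erythroid blasts from 17 mice that carry a constitutively expressed Spi1 transgene (TgSpi1), with 1 library per mouse. Preleukaemic blasts depended on erythropoietin (EPO) for growth and formed no tumours in recipient mice, whereas leukaemic blasts grew without EPO and were tumorigenic. All libraries came from primary spleen cells of sick mice that were kept in culture with EPO, so every group shares the transgene, the culture and the hormone. Model 1 had the mixed strain background DBA2JxFVB/N and held 4 TgSpi1FA+/+ preleukaemic mice (with Fanca intact and titles ending in preleukemic_445, preleukemic_479, preleukemic_451 and preleukemic_138), 3 TgSpi1FA-/- preleukaemic mice (preleukemic_77, preleukemic_224 and preleukemic_40, Fanca deleted) and 3 TgSpi1FA-/- leukaemic mice (leukemic_26, leukemic_28 and leukemic_39). Model 2 had the background DBA2J and held 4 preleukaemic (preleukemic_633, preleukemic_663, preleukemic_812 and preleukemic_837) and 3 leukaemic (leukemic_601, leukemic_606 and leukemic_921) TgSpi1FA+/+ mice, the leukaemic cells having arisen after serial blood transfusions of the mice. The ages of the mice were not given in the sources used here. The genes were followed to ask how a platelet programme behaves in erythroid blasts, which of its members differ between leukaemic and preleukaemic cells, and whether that difference is alike in both models.

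Megakaryocytes, the bone marrow and spleen cells that shed platelets, arise from a progenitor that they share with erythroid cells, and the GATA and ETS families of transcription factors act on many of their genes. ITGA2B and ITGB3 pair as the integrin that binds fibrinogen when platelets aggregate. GP1BA, GP1BB, GP9 and GP5 form the surface complex that catches von Willebrand factor (VWF) on a damaged vessel wall, and platelet alpha-granules store VWF with the chemokines PF4 and PPBP. ITGA2B, also known as CD41, is present on early haematopoietic progenitors as well, and VWF is also made by endothelial cells.

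On GRCm38, Itga2b (ENSMUSG00000034664) lies on the minus strand of chromosome 11 from 102453297 to 102470122, and Itgb3 (ENSMUSG00000020689) on the plus strand of the same chromosome from 104608000 to 104670476. Gp1ba (ENSMUSG00000050675) spans 70639122 to 70642036 of chromosome 11 on the plus strand. Gp5 (ENSMUSG00000047953) spans 30307685 to 30310779 and Gp1bb (ENSMUSG00000050761) spans 18620317 to 18622403 of chromosome 16, both on the minus strand. Gp9 (ENSMUSG00000030054) occupies 87778072 to 87779768 and Vwf (ENSMUSG00000001930) occupies 125546774 to 125686679 of chromosome 6, both on the plus strand. The chemokine genes Ppbp (ENSMUSG00000029372, 90768518 to 90770063) and Pf4 (ENSMUSG00000029373, 90772435 to 90773383) are neighbours on the plus strand of chromosome 5. Gp1bb shares 1902 of its 2087 exon bases with Sept5 on the same strand, so its reads cannot be assigned with certainty.

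The sequence before the start site was read from RefSeq (GRCm38.p6) for the 7 members with an entry there, which leaves out Vwf and Itgb3. The windows of 250 bases of the 4 members below are shown because they hold short GATA or ETS motifs close to the start, and those of Pf4 and Gp5 belong to the members with the highest levels per length. Capitals mark the ETS motifs AGGAAG and CGGAAG and the GATA motifs AGATAA or TGATAA and also AGATAG or TGATAG, searched on both strands, and the reverse complements appear in capitals as they read on the gene's strand.
Gp1ba (chr11:70638872-70639121, plus strand): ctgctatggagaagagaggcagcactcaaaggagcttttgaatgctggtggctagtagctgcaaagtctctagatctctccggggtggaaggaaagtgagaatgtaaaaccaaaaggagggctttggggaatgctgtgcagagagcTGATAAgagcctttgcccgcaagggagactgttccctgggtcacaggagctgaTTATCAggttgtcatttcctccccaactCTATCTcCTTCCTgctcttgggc
Gp5 (chr16:30310782-30311031, minus strand): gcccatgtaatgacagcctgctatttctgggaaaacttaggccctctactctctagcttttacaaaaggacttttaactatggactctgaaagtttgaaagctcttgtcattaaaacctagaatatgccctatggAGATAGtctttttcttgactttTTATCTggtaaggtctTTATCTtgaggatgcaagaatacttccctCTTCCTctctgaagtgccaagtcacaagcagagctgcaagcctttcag
Gp9 (chr6:87777820-87778069, plus strand): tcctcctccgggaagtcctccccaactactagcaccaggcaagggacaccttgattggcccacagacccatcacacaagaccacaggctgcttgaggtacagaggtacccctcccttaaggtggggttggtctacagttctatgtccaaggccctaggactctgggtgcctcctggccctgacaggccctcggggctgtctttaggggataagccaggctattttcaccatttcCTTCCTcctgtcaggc
Pf4 (chr5:90772185-90772434, plus strand): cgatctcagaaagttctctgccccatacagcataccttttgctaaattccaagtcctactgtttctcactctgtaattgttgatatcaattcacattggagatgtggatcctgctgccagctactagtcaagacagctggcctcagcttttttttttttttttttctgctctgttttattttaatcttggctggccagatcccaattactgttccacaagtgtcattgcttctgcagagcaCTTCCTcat

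An ETS motif lay 16 bases before the start of Gp1ba and of Gp9, 9 bases before that of Pf4 and 48 bases before that of Gp5. Gp1ba had GATA motifs 104, 51 and 23 bases before its start, and Gp5 had them at 115, 93 and 77 bases. Among the 7 windows, 6 held an ETS motif and 3 held a GATA motif. Of 32851 windows of the same length in the whole RefSeq table, 39.2% held the ETS and 26.5% the GATA motifs. These matches describe the letters only and were tied to no measurement of binding. The windows of Itga2b and Gp1bb overlap annotated exons and are not shown.

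Total counts ranged from 29964576 to 38217654 per library in model 1 and from 37726753 to 40514205 in model 2. Levels are given as CPM, the counts of a library brought to a common total after scaling by edgeR's TMM method, each table being scaled on its own, so that levels set side by side across the models carry their difference in scaling. Fanca, the deleted gene, had 28.2 to 83.5 CPM in the TgSpi1FA+/+ and 0.615 to 2.30 CPM in the TgSpi1FA-/- libraries of model 1, without overlap. Spi1 had 3.88 CPM in leukemic_39, against 220 to 1061 CPM in the other 9 libraries of model 1, although all mice carry the transgene. Its leukaemic values of 3.88, 220 and 630 CPM all lay below the 670 to 781 CPM of the TgSpi1FA-/- preleukaemic libraries. Between these groups edgeR gave a log2 fold change of -1.32 (SE 1.10, adjusted p = 0.443). The part of Spi1 in the members' values was not tested. Of the erythroid markers, the transferrin receptor gene Tfrc (1215 to 2557 CPM), the regulator Klf1 (44.4 to 351) and Epor (60.9 to 310) were present in all 17 libraries. The globin genes Hbb-bs and Hbb-bt, Epb42, Slc4a1 and Alas2 had 0.101 to 1.69 CPM in the library lowest for each, and Hba-a2 had at most 0.131 CPM. The libraries preleukemic_445 and preleukemic_479 were nearly alike (chi-square per degree of freedom 8.53, against 114 to 372 for the other pairs within a group of model 1). The column names and the source labels call preleukemic_77, preleukemic_224 and preleukemic_40 leukaemic, whereas their titles and cell type say preleukaemic, which is the stage used here.

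Per kilobase of exon, averaged over the libraries, Pf4 had the highest mean level of the 9 genes at 39.3 CPM per kilobase, followed by Gp5 at 20.9. Their medians over the libraries were near each other (17.6 and 17.1), and the mean of Gp5 was above that of Pf4 in the TgSpi1FA-/- preleukaemic (27.3 against 21.1) and the model 2 preleukaemic mice (16.1 against 14.1). Itga2b at 10.9 and Itgb3 at 10.6 CPM per kilobase came next and lay within each other's range over the libraries, and Gp1ba followed at 4.50. Gp9 at 0.987, Ppbp at 0.957, Vwf at 0.0816 and Gp1bb at 0.0597 CPM per kilobase were low. The range over the libraries was wide for each of them, from 1.16 to 180 CPM per kilobase for Pf4 and from 0.00962 to 43.2 for Itgb3, so neighbouring ranks overlapped throughout. In bulk RNA, fewer cells of a type and less RNA per cell cannot be told apart. A count was present in all 17 libraries for 7 of the 9 genes, in 12 of 17 for Ppbp and in 2 of 10 for Gp1bb, which the table of model 2 does not list.

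**Figure D1:**
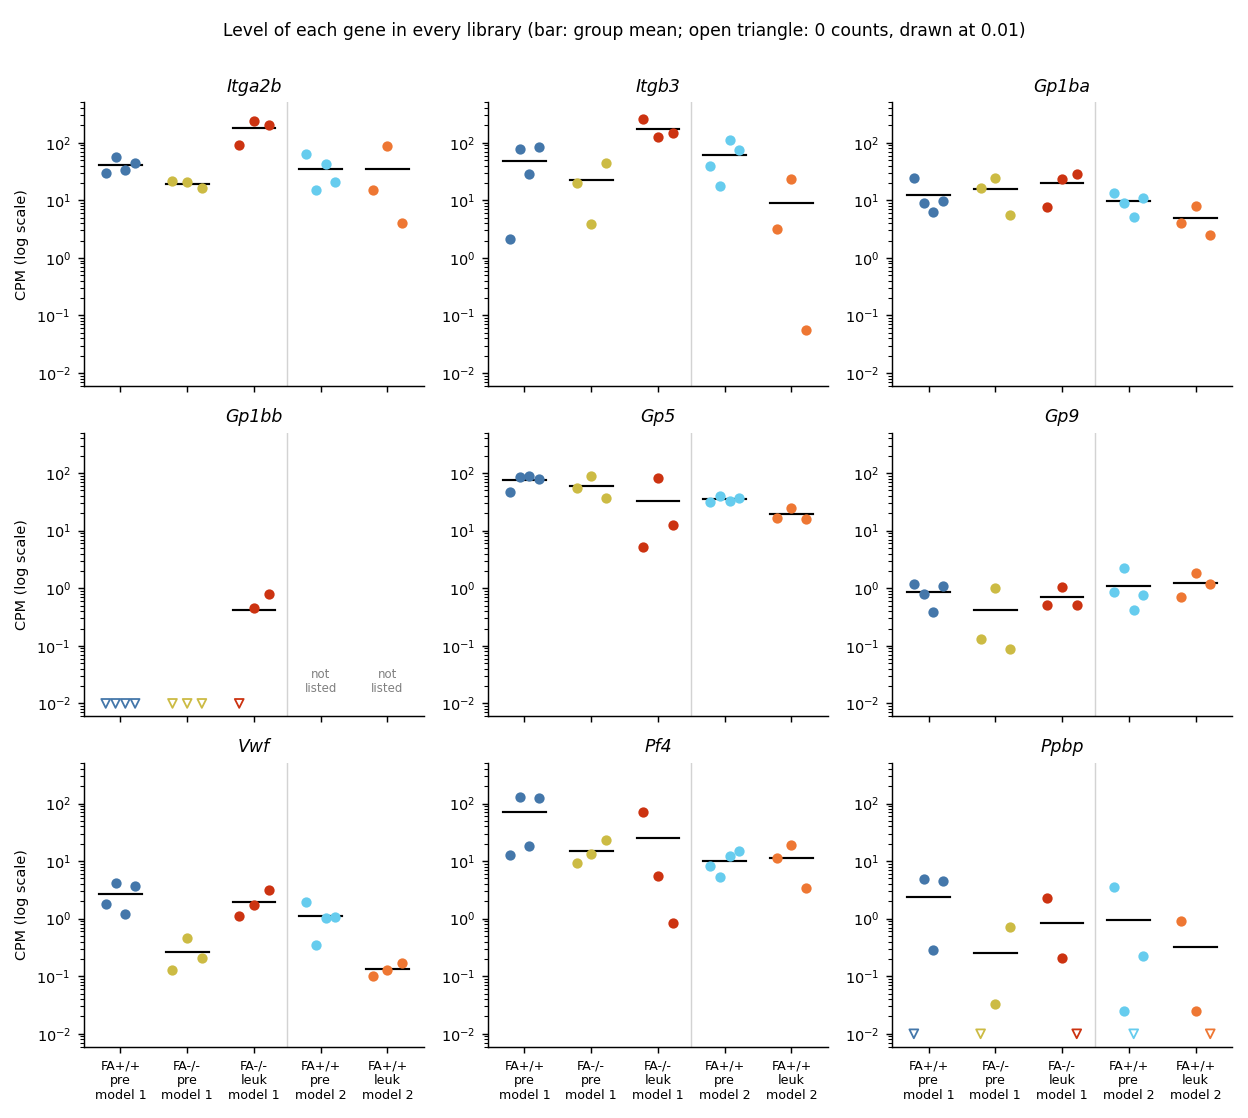
Level of each of the 9 genes in CPM (log axis) in each library, with the 3 groups of model 1 and the 2 groups of model 2 side by side; each point is 1 mouse and each bar a group mean, and libraries at 0 are open triangles at 0.01. Itga2b and Itgb3 stood highest in the 3 TgSpi1FA-/- leukaemic libraries, Vwf was low in the TgSpi1FA-/- preleukaemic and the model 2 leukaemic libraries, and Pf4 and Ppbp spread widely within groups.

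Between TgSpi1FA-/- leukaemic and TgSpi1FA-/- preleukaemic cells, Itga2b and Vwf were higher past the thresholds, and no member tested was lower past them. Gp5 was the 1 member tested with a negative log2 fold change (-0.86, SE 0.83). Of the 8 members tested, 2 (25.0%) were differentially expressed at an adjusted p under 0.05 with a fold change of at least 1.5, where 13.3% of all 13393 genes tested were. The values of both groups did not overlap for Itga2b, Itgb3 and Vwf, each higher in leukaemic cells, a pattern shown by 19.4% of all genes tested. The median log2 fold change was 1.22 over the 8 members and 0.00 over all genes. Gp1bb did not pass the filter on low counts. The p-values of edgeR's quasi-likelihood test, adjusted by the method of Benjamini and Hochberg over all genes tested, are those meant by adjusted p throughout.

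Itga2b, the alpha chain of the fibrinogen receptor, had 92.8, 243 and 203 CPM in the leukaemic mice leukemic_26, leukemic_28 and leukemic_39, against 20.6, 16.1 and 21.8 CPM in preleukemic_77, preleukemic_224 and preleukemic_40, the preleukaemic mice of that genotype. Even the lowest leukaemic library lay more than 4 times above the highest of these preleukaemic ones, which were close to each other. The means were 179.8 ± 78.0 and 19.5 ± 3.03 CPM (SD, n = 3 each), a log2 fold change of 3.20 (SE 0.38, adjusted p = 0.00472), or 9.22-fold. Leaving out any 1 of the 10 mice kept the call, at log2 fold changes between 2.95 and 3.52. Without leukemic_39, in which Spi1 was lowest, it was 3.13 (adjusted p = 0.0154).

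The TgSpi1FA+/+ preleukaemic mice preleukemic_445, preleukemic_479, preleukemic_451 and preleukemic_138 had 56.0, 44.8, 34.2 and 29.7 CPM of Itga2b, with a mean of 41.2 ± 11.7 (SD, n = 4). They lay between the TgSpi1FA-/- groups and overlapped with neither. Itga2b was 4.36-fold higher in the TgSpi1FA-/- leukaemic than in the TgSpi1FA+/+ preleukaemic cells (log2 fold change 2.13, SE 0.33, adjusted p = 0.0143). It was the only member called among 8 tested in that comparison (12.5%), in which 7.01% of all genes were called. This call was lost without preleukemic_479 (adjusted p = 0.0509), without leukemic_28 (0.0628) and on the counts of the second deposited table, described further on (log2 fold change 1.91, adjusted p = 0.316), in which the groups overlapped.

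In model 2, Itga2b had 62.7, 15.07, 42.0 and 21.1 CPM in the preleukaemic mice preleukemic_633, preleukemic_663, preleukemic_812 and preleukemic_837, and 15.01, 87.9 and 3.97 CPM in the leukaemic mice leukemic_601, leukemic_606 and leukemic_921. The leukaemic libraries held both the highest and the lowest value of the model, and the groups overlapped. The means were 35.2 ± 21.7 (SD, n = 4) and 35.6 ± 45.6 CPM (SD, n = 3), a log2 fold change of 0.02 with an SE of 0.94 (adjusted p = 0.994). It was -1.89 without leukemic_606, -0.24 without preleukemic_663 and -0.16 without preleukemic_837, so no direction could be given for model 2.

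Itgb3, the beta chain that pairs with ITGA2B, had 255, 124 and 150.1 CPM in the leukaemic and 3.91, 45.0 and 19.99 CPM in the preleukaemic TgSpi1FA-/- libraries. The groups did not overlap, but the preleukaemic mice differed more than 10-fold among themselves. The log2 fold change was 2.94 with an SE of 1.17 and did not pass the threshold (adjusted p = 0.117). DESeq2's Wald test gave 0.0221 for it, and edgeR gave 0.0428 without preleukemic_138. In the TgSpi1FA+/+ preleukaemic mice, Itgb3 had 76.8, 85.0, 28.9 and 2.13 CPM, all below the leukaemic libraries (log2 fold change 1.87, SE 1.02, adjusted p = 0.270). Itga2b and Itgb3 were the 2 members whose groups did not overlap in this comparison, which held in the same direction for 12.8% of all genes.

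In model 2 the values of Itgb3 lay the other way round. The preleukaemic mice had 39.2, 17.7, 111 and 74.5 CPM and the leukaemic mice 3.18, 23.9 and 0.0568 CPM, so that leukemic_606 overlapped with the preleukaemic mice. The log2 fold change was -2.74 with an SE of 1.43 (adjusted p = 0.323). In leukemic_606 both integrin chains were present, whereas leukemic_601 and leukemic_921 had little Itgb3.

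Vwf, the ligand of the GPIb complex, was low throughout but separated the groups. Its levels were 1.10, 1.74 and 3.09 CPM (40, 68 and 122 counts) for the leukaemic and 0.460, 0.205 and 0.129 CPM (14, 7 and 4 counts) for the preleukaemic TgSpi1FA-/- libraries. Each leukaemic library lay above each of these preleukaemic libraries. The log2 fold change was 2.89 (SE 0.71, adjusted p = 0.0308), or 7.40-fold, between means of 1.98 ± 1.02 and 0.265 ± 0.173 CPM (SD, n = 3 each). The call was lost without preleukemic_224 (adjusted p = 0.104), preleukemic_40 (0.0845), leukemic_28 (0.0742) or leukemic_39 (0.0791), and it was 0.0504 when only the compared groups were fitted.

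The TgSpi1FA+/+ preleukaemic mice had 4.09, 3.71, 1.19 and 1.82 CPM of Vwf, which overlapped with the leukaemic values. Leukaemic TgSpi1FA-/- and preleukaemic TgSpi1FA+/+ cells differed by a log2 fold change of -0.45 (SE 0.61, adjusted p = 0.680). The low group among those of model 1 was thus the TgSpi1FA-/- preleukaemic one, whose values were all below those of the TgSpi1FA+/+ preleukaemic mice. In the latter comparison the log2 fold change was -3.34 with an SE of 0.70, or 10.1-fold lower, with an adjusted p of 0.489 by edgeR. By DESeq2's Wald test the adjusted p of this difference was 0.000107.

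Model 2 placed its low Vwf values in the leukaemic mice. The preleukaemic mice had 1.94, 0.3499, 1.01 and 1.06 CPM and the leukaemic mice 0.103, 0.127 and 0.170 CPM, which are 4, 5 and 6 counts. The groups did not overlap. The log2 fold change was -3.01 (SE 0.69, adjusted p = 0.162), or 8.04-fold lower, and DESeq2 gave an adjusted p of 0.0128.

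Within the receptor complex for VWF, neither Gp1ba, Gp5 nor Gp9 passed the threshold in any comparison. Gp1ba, which carries the VWF binding site, had 7.76, 23.8 and 28.3 CPM in the TgSpi1FA-/- leukaemic, 24.8, 5.61 and 16.1 CPM in the TgSpi1FA-/- preleukaemic and 8.95, 9.68, 6.31 and 23.9 CPM in the TgSpi1FA+/+ preleukaemic mice. The 3 groups covered nearly the same range. Its log2 fold change between TgSpi1FA-/- leukaemic and preleukaemic cells was 0.36 with an SE of 0.68 (adjusted p = 0.754). In model 2, Gp1ba had 13.3, 8.90, 5.04 and 11.1 CPM in the preleukaemic and 4.05, 8.02 and 2.53 CPM in the leukaemic mice (log2 fold change -0.97, SE 0.53, adjusted p = 0.347).

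Gp5, the subunit cleaved by thrombin, was the most abundant member of the complex per kilobase. Levels were 86.1, 80.3, 88.4 and 47.3 CPM in the TgSpi1FA+/+ preleukaemic, 87.6, 37.5 and 55.1 CPM in the TgSpi1FA-/- preleukaemic and 5.15, 81.5 and 12.5 CPM in the TgSpi1FA-/- leukaemic mice. Mouse leukemic_28 alone among the leukaemic mice had a level like those of the preleukaemic mice. The log2 fold change between the TgSpi1FA-/- groups was -0.86 (SE 0.83, adjusted p = 0.511), and without leukemic_28 it was -2.75 (adjusted p = 0.0417).

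In model 2, Gp5 had 31.0, 40.5, 33.0 and 36.6 CPM in the preleukaemic and 16.7, 25.1 and 16.2 CPM in the leukaemic mice. All leukaemic values lay below all preleukaemic values, and both groups were narrow. The difference was 1.82-fold (log2 fold change -0.87, SE 0.25, adjusted p = 0.163). An exact two-sided permutation test gave p = 0.0571, the smallest that 3 mice against 4 allow.

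Gp9, the small subunit that the complex needs to reach the surface, stayed between 0.0877 and 1.16 CPM in model 1 and between 0.427 and 2.27 CPM in model 2. Its groups overlapped in every comparison. Gp1bb, the subunit linked to GP1BA by a disulphide bond, had no count in 8 of the 10 libraries of model 1, which allows up to 3 counts or 0.0822 to 0.0985 CPM in each. Mouse leukemic_28 had 18 counts and leukemic_39 had 31 counts, or 0.460 and 0.786 CPM. Between the TgSpi1FA-/- groups an exact two-sided permutation test of Gp1bb gave p = 0.4, where 0.1 is the smallest that 3 mice against 3 allow.

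The chemokine Pf4 (CXCL4) varied widely inside the groups of model 1. The TgSpi1FA+/+ preleukaemic mice preleukemic_445 and preleukemic_479 had 130.1 and 124 CPM, and preleukemic_451 and preleukemic_138 had 18.5 and 12.7 CPM. The TgSpi1FA-/- preleukaemic mice had 13.4, 23.0 and 9.19 CPM, and the leukaemic mice leukemic_26, leukemic_28 and leukemic_39 had 69.9, 5.55 and 0.837 CPM. High values thus occurred in the nearly alike libraries preleukemic_445 and preleukemic_479 and in leukemic_26, and all groups overlapped. Between the TgSpi1FA-/- groups the log2 fold change was 0.74 (SE 1.35, adjusted p = 0.745), and it turned to -2.24 without leukemic_26. In model 2, Pf4 had 8.19, 5.37, 12.5 and 14.8 CPM in the preleukaemic and 11.4, 18.9 and 3.35 CPM in the leukaemic mice, with a log2 fold change of 0.14 (SE 0.61, adjusted p = 0.923).

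Ppbp, the neighbouring chemokine gene (CXCL7), had 4.87, 4.44, 0.288 and 0 CPM in the TgSpi1FA+/+ preleukaemic, 0.0328, 0.731 and 0 CPM in the TgSpi1FA-/- preleukaemic and 2.33, 0.204 and 0 CPM in the leukaemic mice. The libraries preleukemic_445, preleukemic_479 and leukemic_26, which were highest for Pf4, were also the highest 3 of model 1 for Ppbp. The model 2 preleukaemic mouse preleukemic_633 had 3.53 CPM, whereas the other 6 mice of model 2 had 0 to 0.923 CPM. In the separate fits of the models, Ppbp passed the filter in model 1 only, and there the log2 fold change between TgSpi1FA-/- leukaemic and preleukaemic cells was 1.70 with an SE of 2.17 (adjusted p = 0.629).

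**Figure D2:**
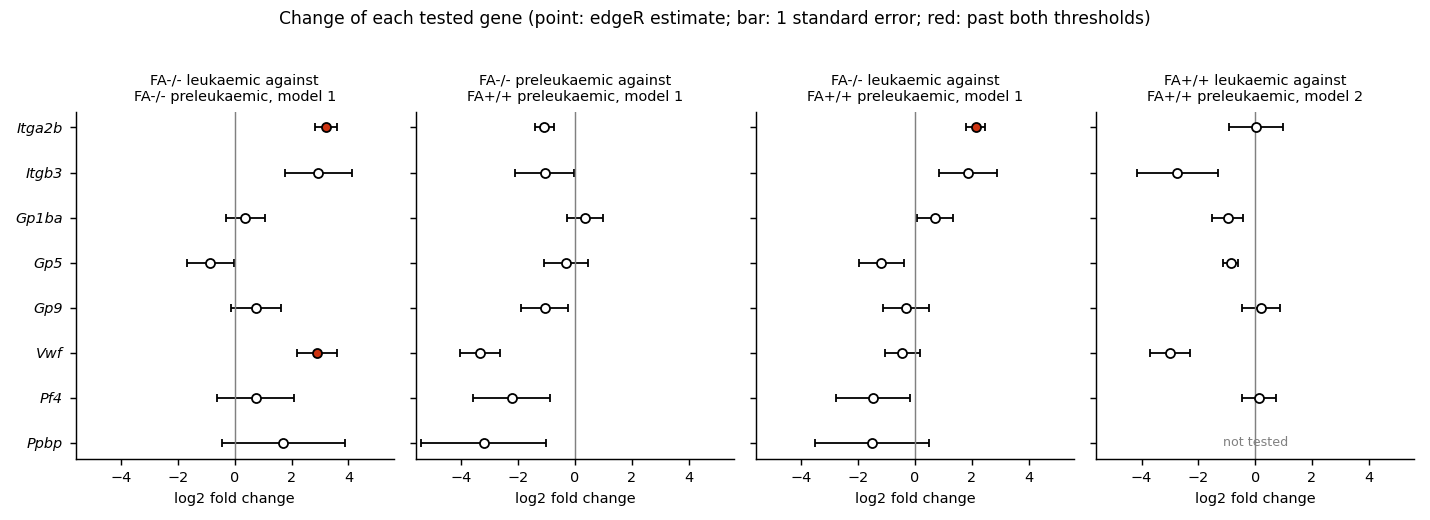
Log2 fold change with its standard error (horizontal bars) of each member tested, one panel per comparison, with red symbols for members past the threshold of edgeR's test. Itga2b and Vwf passed between TgSpi1FA-/- leukaemic and TgSpi1FA-/- preleukaemic cells, Itga2b passed against TgSpi1FA+/+ preleukaemic cells, and no member passed between the preleukaemic groups or in model 2.

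Between TgSpi1FA-/- and TgSpi1FA+/+ preleukaemic cells, which differ in Fanca, 0 of 8 members were called by edgeR, where 0.00747% of all genes were. DESeq2 called 1, Vwf. At an unadjusted p under 0.05 there were 2 of 8, against 8.65% of all genes. The groups did not overlap for Itga2b and Vwf, both lower in TgSpi1FA-/- cells, a pattern that 4.27% of all genes showed. Itga2b was 2.11-fold lower (log2 fold change -1.08, SE 0.34, adjusted p = 0.535). The fold changes of Itgb3, Gp9 and Ppbp were -1.07, -1.06 and -3.20 on the log2 scale with SEs of 1.05, 0.83 and 2.20, and the median of the 8 members was -1.07. Fanca, the deleted gene, was itself not called by edgeR here (log2 fold change -5.26, SE 0.65, adjusted p = 0.0759). DESeq2's Wald test gave it an adjusted p of 6.59e-18. The lack of calls by edgeR thus does not show that the members were unchanged.

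Between leukaemic and preleukaemic cells of model 2, 0 of 7 members were called by edgeR, as were 0.0% of all 12970 genes tested. DESeq2 called 1, Vwf. At an unadjusted p under 0.05 there were 2 members, Vwf and Gp5, against 19.9% of all genes. These were also the 2 members whose groups did not overlap, both lower in leukaemic cells, as were 10.4% of all genes. The median log2 fold change was -0.87 over the 7 members and -0.03 over all genes. Spi1 itself was lower in each leukaemic than in each preleukaemic library of model 2 (log2 fold change -0.78, SE 0.26, adjusted p = 0.182), and its part in these values was not tested.

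The leukaemic changes of the models were set against each other in 1 fit of all 17 libraries. Vwf differed, with a log2 difference of 5.86 (SE 1.01, adjusted p = 0.0285), higher in leukaemic cells of model 1 and lower in those of model 2. It was 1 of 8 members called (12.5%), against 4.61% of the 14597 genes tested. The call was lost without any of the mice preleukemic_77, preleukemic_224, preleukemic_40, leukemic_28, leukemic_39, leukemic_601 and leukemic_921, at adjusted p-values between 0.0513 and 0.0770. Itga2b (3.16, SE 1.10, adjusted p = 0.0911) and Itgb3 (5.67, SE 1.95, adjusted p = 0.0894) had differences in the same direction that missed the threshold. Without leukemic_606 Itga2b was called (adjusted p = 0.0424). Genotype of Fanca, strain, route to leukaemia and library protocol change together between the models and cannot be told apart in this test.

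Other genes of the platelet programme were read from 4 lists with 78 genes in all, chosen with earlier results of these data known. Between TgSpi1FA-/- leukaemic and preleukaemic cells, 11 of 60 tested were called (18.3%, against 13.3% of all genes), 7 higher and 4 lower, with a median log2 fold change of 0.13. Without preleukemic_224, leukemic_28 or preleukemic_40 the calls were 4, 5 and 7. No test set the lists apart from each other or from all genes. Among receptors and signalling genes 5 of 23 were called. F2r, a thrombin receptor gene, averaged 402 CPM in leukaemic and 0.306 CPM in TgSpi1FA-/- preleukaemic cells (adjusted p = 0.0176). The related genes F2rl2 and F2rl3 of the same list were not called (log2 fold changes 7.02 and 3.71). Rasgrp2, which activates the integrin through RAP1, averaged 229 and 0.233 CPM (adjusted p = 0.00668). Cd9, a tetraspanin of the platelet surface, averaged 43.8 and 0.0585 CPM (adjusted p = 0.0203). The latter mean was below the 0.0944 CPM that 3 counts per library give, so a fall of Cd9 could hardly have been detected. P2rx1, an ATP receptor, had a leukaemic mean at least 127-fold above a floor of 3 counts per library (adjusted p = 0.0191). It had 0 to 1 counts in the TgSpi1FA-/- preleukaemic libraries and could only be called higher. The prostaglandin receptor gene Ptger3 decreased from 70.1 to 7.99 CPM (adjusted p = 0.0118). In the TgSpi1FA+/+ preleukaemic mice, F2r ranged from 0.224 to 151 CPM and Rasgrp2 from 2.31 to 31.9 CPM.

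The granule gene list had 1 of 12 called, against 13.3% of all genes. This was Sparc, whose leukaemic mean was at least 339-fold above the floor (adjusted p = 0.016). It ranged from 12 to 3083 counts among the leukaemic libraries, the lowest of which had 0.329 CPM, against a floor of 0.0944 CPM. With at most 3 counts in every preleukaemic library of model 1, Sparc passed the filter through the leukaemic libraries alone. It could thus only be called higher, against either preleukaemic group. The cytoskeleton and enzyme list had 3 of 12 called, against the same 13.3% of all genes. Ptgs1, the cyclooxygenase of platelets, increased by 4.74 on the log2 scale (adjusted p = 0.0161), and the alpha-actinin gene Actn1 by 5.53 (0.0253, or 0.0558 with only the compared groups fitted). Ptgs1 had 1 to 5 counts in the TgSpi1FA-/- preleukaemic libraries, so a fall could hardly have been detected for it. The non-muscle myosin gene Myh9 fell by 1.12 on the log2 scale (0.0136).

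Among regulators of megakaryocyte development 2 of 13 were called between the TgSpi1FA-/- groups, against 13.3% of all genes, both lower in leukaemic cells. Gfi1b, a repressor that erythroid and megakaryocytic cells both need, fell from 253 to 151 CPM (log2 fold change -0.75, adjusted p = 0.0127), and Myb fell from 639 to 244 CPM (-1.39, adjusted p = 0.0119). Fli1 (-0.65, adjusted p = 0.468), Runx1 (-0.62, 0.264), Gata1 (-0.33, 0.170), Nfe2 (-0.59, 0.0697) and Gata2 (2.20, 0.359) did not pass. In the other comparison with TgSpi1FA-/- leukaemic cells, against TgSpi1FA+/+ preleukaemic ones, 7 of 60 genes of the lists were called (11.7%, against 7.01% of all genes). These were Rasgrp2, Cd9, Sparc and Actn1, which were higher, and Myb, Ptger3 and Myh9, which were lower. With the nearly alike libraries preleukemic_445 and preleukemic_479 taken as 1, the call was kept by Ptger3 and lost by the other 6, at adjusted p-values between 0.0630 and 0.115. There were 0 calls without preleukemic_445, preleukemic_479, leukemic_28 or leukemic_39, 2 without preleukemic_451, 4 without preleukemic_224 and 11 without preleukemic_138 or leukemic_26.

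Between the preleukaemic groups 0 of 60 of these genes were called, with a median log2 fold change of -0.28, and 9 had an unadjusted p under 0.05, against 8.65% of all genes. DESeq2 called 6 of these and 256 of all genes. In model 2, 0 of 55 were called, with a median of -0.68, and 17 had an unadjusted p under 0.05, against 19.9% of all genes. DESeq2 called 10 of these and 470 of all genes. The regulators there had log2 fold changes of -0.86 for Fli1, -0.87 for Runx1, -0.62 for Gata1, -0.46 for Nfe2, 0.13 for Gfi1b and 1.32 for Gata2, none past the threshold. The difference between the models was called for 6 of 63 genes (9.52%, against 4.61% of all genes), Rasgrp2, Ptgs1, F2r, Zfpm1, P2rx1 and Cd9, each with the higher change in model 1. No gene of the lists was called by edgeR without any 1 of preleukemic_77, preleukemic_224, preleukemic_40, leukemic_28, leukemic_39 and leukemic_921, 1 without leukemic_601 or leukemic_606, and 3 without preleukemic_445 or preleukemic_633.

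**Figure D3:**
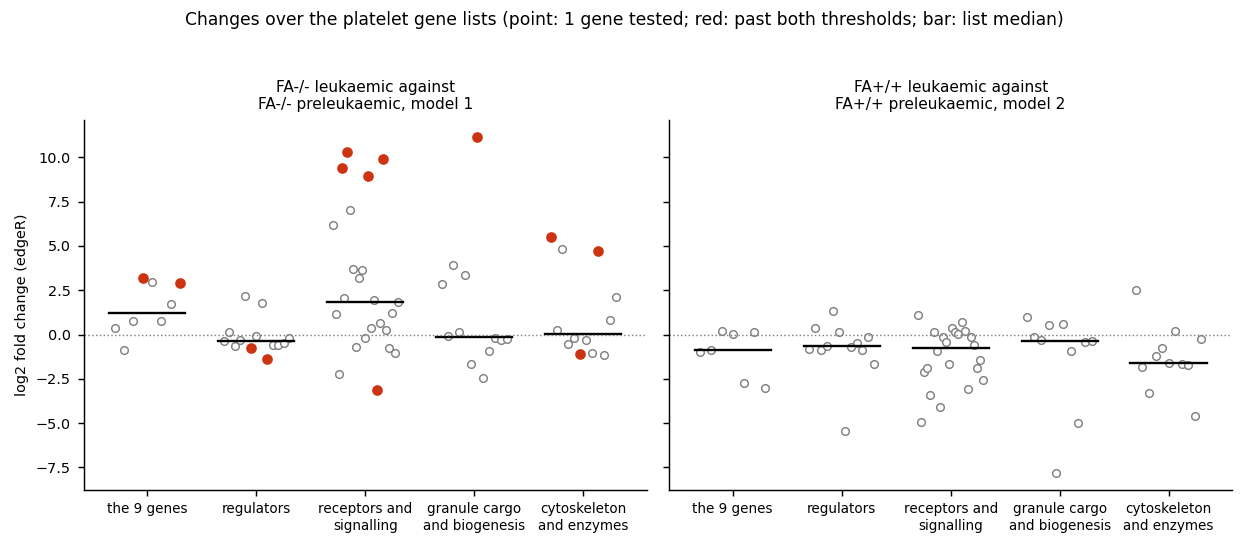
Log2 fold change of each tested gene of the 4 platelet gene lists beside the members, between leukaemic and preleukaemic cells of model 1 (TgSpi1FA-/-) and of model 2 (TgSpi1FA+/+), with red points for genes past the threshold and a line at each list's median. Receptor and signalling genes had the highest median in model 1, and no gene passed in model 2.

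Markers of other cells moved with some of these comparisons, and their part in the members' values was not tested. Of the endothelial markers, 5 of 12 were tested between the TgSpi1FA-/- groups and 3 were called, against 13.3% of all genes. Kdr increased from 0.465 to 22.9 CPM and Egfl7 from 0.898 to 63.3 CPM, and Plvap decreased from 40.4 to 12.4 CPM. Their summed level was 34.0 to 152 CPM in the leukaemic and 18.6 to 60.0 CPM in the TgSpi1FA-/- preleukaemic mice. The endothelial gene Cdh5 was at 0 in all preleukaemic libraries of model 1 and at 0.178 to 0.521 CPM (7 to 19 counts) in the leukaemic ones. Tie1 had at most 4 counts. Means also rose from TgSpi1FA-/- preleukaemic to leukaemic cells for Pecam1 (0.0205 to 0.738 CPM), Esam (0.239 to 0.705) and Tek (3.49 to 8.56). Tek ranged from 0.101 to 21.4 CPM among the leukaemic libraries. Of the endothelial markers listed, Plvap alone had a lower leukaemic mean. In model 2 the endothelial sum was 4.40 to 22.1 CPM in leukaemic and 34.0 to 70.1 CPM in preleukaemic cells, with Cdh5 at 0 in the leukaemic libraries. There 0 of 4 were called by edgeR, and 0 had an unadjusted p under 0.05, against 19.9% of all genes.

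Of the mast cell markers, 0 of 6 were called by edgeR between the TgSpi1FA-/- groups, against 13.3% of all genes (1 at an unadjusted p under 0.05). The list summed to 73.7 to 291 CPM in leukaemic and 389 to 730 CPM in preleukaemic cells, and Tpsb2, Tpsab1 and Cma1 were at 0 in the latter. The preleukaemic sum was mostly Srgn, also on the granule list, which averaged 494 CPM there and 90.0 CPM in leukaemic cells. The other markers went both ways, with Hdc higher in leukaemic cells (52.2 against 16.5 CPM) and Ms4a2 lower (0.174 against 5.89 CPM). In model 2 the mast cell sum was 860 to 1120 CPM in leukaemic and 157 to 911 CPM in preleukaemic cells. There 0 of 8 were called by edgeR, and 4 had an unadjusted p under 0.05, against 19.9% of all genes. Srgn again made up most of the sum, with means of 819 CPM in leukaemic and 541 CPM in preleukaemic cells. Each other marker also had the higher mean in leukaemic cells, among them Cpa3 (19.9 against 0.805 CPM) and Ms4a2 (59.8 against 1.95 CPM). Of the erythroid markers, 2 of 10 were called between the TgSpi1FA-/- groups, against 13.3% of all genes. These were Klf1 (log2 fold change -1.27) and Hbb-bt (-5.94), both lower in leukaemic cells. The erythroid sum was 1686 to 3933 CPM in leukaemic and 4335 to 4991 CPM in preleukaemic cells. Stem and progenitor markers had 1 of 3 called, against the same 13.3%, namely Cd48, which was lower in leukaemic cells. Myeloid markers summed to at most 4.49 CPM and lymphoid markers to at most 0.438 CPM in model 1.

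A second deposited table holds other counts of 7 mice of model 1, and the sources used here do not say how they relate to those of the first. The median fold between both values of a mouse was above that of all genes for each of the following members but Gp1ba. It was 1.79 for Itga2b, 1.86 for Itgb3, 1.89 for Pf4, 2.11 for Vwf, 2.03 for Gp9, 1.69 for Gp5 and 1.27 for Gp1ba, against a median of 1.43 over 13078 genes. The TgSpi1FA+/+ preleukaemic mouse preleukemic_445 had 56.0 CPM of Itga2b in the first and 5.48 CPM in the second table, and preleukemic_138 had 29.7 and 154 CPM. In the leukaemic mice leukemic_26, leukemic_28 and leukemic_39 Itga2b had 124, 366 and 226 CPM in the second table, 1.34-, 1.504- and 1.11-fold from the first. Pf4 in preleukemic_445 was 130.1 CPM in the first and 5.00 CPM in the second table, 26.1-fold apart. The libraries preleukemic_445 and preleukemic_479 were nearly alike in the first table only. In the second, their chi-square per degree of freedom was 350, against 393 to 742 for the other pairs within a group.

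When TgSpi1FA-/- leukaemic and TgSpi1FA+/+ preleukaemic cells were compared on these counts, 0 of 8 members were called, where 1.59% of all genes were, at an adjusted p of 0.209 or more. Of the 8, 2 had an unadjusted p under 0.05, Itgb3 and Ppbp, against 18.6% of all genes. Itga2b was higher by a log2 fold change of 1.91 (SE 0.92, adjusted p = 0.316) and Itgb3 by 2.93 (SE 1.08, adjusted p = 0.209). Itgb3 was again higher in each leukaemic than in each TgSpi1FA+/+ preleukaemic library, as 10.5% of all genes were. For Ppbp the direction turned, to 3.04.

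**Figure D4:**
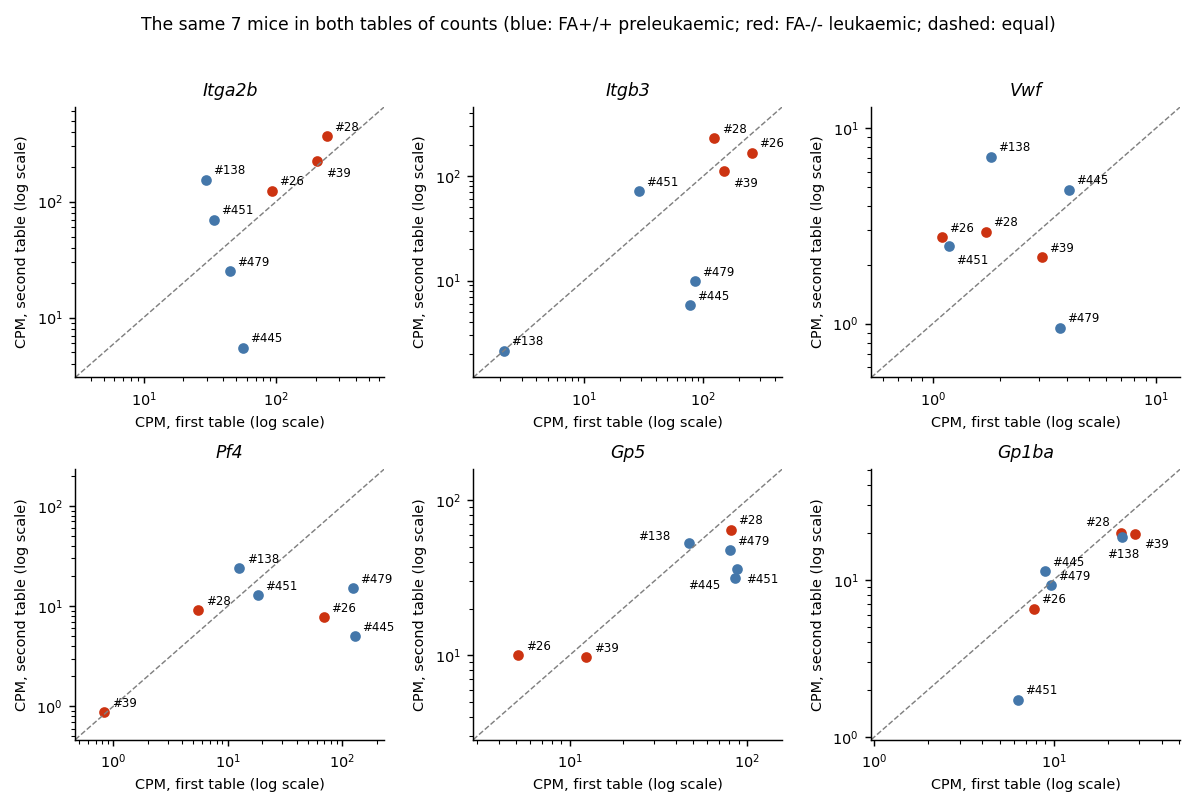
CPM of 6 members in the same 7 mice in the first (horizontal) and the second (vertical) deposited table, both on log axes, with 1 point per mouse (# and the number in its title), the TgSpi1FA+/+ preleukaemic mice in blue and the TgSpi1FA-/- leukaemic mice in red. The leukaemic mice lay near the line of equal values for Itga2b, whereas preleukemic_445 and preleukemic_138 lay far from it on opposite sides.

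The genes whose pattern over the 17 libraries was most like that of a member were found by Pearson's r of log2 CPM, centred within each model, over 12091 genes. These are descriptions over libraries that share the groups, culture and protocols, and carry no test. Itga2b was closest to Creb3l1 (r = 0.911), Cuedc1 (0.895) and Ccdc159 (0.893), and Itgb3 to Fbxw8 (0.833), Maml3 (0.827) and Kdm1a (0.825). Vwf was closest to Slc44a1 (0.899), Ston2 (0.887) and Cd59a (0.863). Among the other members, the nearest gene was Nfkb1 for Pf4 (0.883), Sowaha for Gp1ba (0.879), Mcm3 for Gp5 (0.874) and Gm9530 for Gp9 (0.831). None of these 7 members had another of the 9 genes among its nearest 3. Gp1bb and Ppbp, which were not tested in both models, were not among the genes compared.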

How the data were processed

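The authors deposited raw counts, that is whole numbers of reads per Ensembl gene without normalization. Per the labels, RNA (400 ng with 8 min of fragmentation in model 1, 300 ng with 2 min in model 2) was converted to stranded poly(A) libraries from cells diluted 2 days before extraction. The submitters' processing notes name bcl2fastq 2.17.1.14, STAR 2.5.3a, HTSeq 0.6.1p1 and GRCm38. The strand setting and annotation of the counting are not given in the sources used here. Gene positions came from GENCODE M21, which held 99.804% of the identifiers of model 1.

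After filterByExpr, counts were tested with edgeR 4.0.16 (R 4.3.3, TMM, glmQLFit and glmQLFTest), model 1 as 3 groups in 1 fit, model 2 alone, and all 17 libraries for the difference between models. Called genes had to reach both thresholds of the study, a 1.5-fold change and 0.05 for the adjusted p. Exact two-sided permutation tests (scipy 1.17.1) used log2(CPM + 0.1). Values at up to 3 counts were treated as at the floor, and floors cover counting error only. All members were named. Regulators were named by rule (1 of them is not reported here), and of the other platelet lists the called genes, up to 6 per list. Myb, Zfpm1, F2rl2, F2rl3, the called markers of other cells and some of their uncalled markers were named after their values were seen. Members, lists and rules were chosen with earlier results of these data known. Alternatives were DESeq2 1.42.0, other normalization, filters and fits, the second table and leaving out each mouse. The fits were tested on simulated data. A deposited copy of the model 2 table was not used.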

Additional observations from a re-analysis of the deposited data

Results flagged for a closer look

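Ppbp had 3.53 CPM in the model 2 preleukaemic mouse preleukemic_633, far from the other 3 mice of the group, the next of which had 0.223 CPM. It was the only one of 16 member levels in groups of 4 mice that stood apart by Dixon's criterion (its gap to the next value was 0.937 of the range), where chance alone gives about 1 in 20.

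The difference between the leukaemic changes of model 1 and model 2 passed edgeR's interaction test for Vwf (adjusted p = 0.0285), with 3 of 3 TgSpi1FA-/- leukaemic mice above all 3 TgSpi1FA-/- preleukaemic mice in model 1 and 3 of 3 leukaemic mice below all 4 preleukaemic mice in model 2. Among the other platelet genes it passed for Rasgrp2 and Ptgs1 (adjusted p = 0.0292 each), F2r (0.0318), Zfpm1 (0.0365), P2rx1 (0.0462) and Cd9 (0.0464). F2r averaged 0.306 CPM in TgSpi1FA-/- preleukaemic and 402 CPM in TgSpi1FA-/- leukaemic cells, and 57.4 and 15.6 CPM in the preleukaemic and leukaemic cells of model 2. These calls depended on single mice, as given above for Vwf and the lists. With no filter on low counts, Zfpm1, P2rx1 and Cd9 were not called by edgeR (adjusted p = 0.0509, 0.0594 and 0.0581). Strain, genotype, route to leukaemia and library protocol differ between the models and cannot be told apart from this difference.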

How the results depend on the processing

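No paired analysis was possible because the replicate numbers are mouse numbers and no groups share one. Over 705 values of the members' fold changes under the alternatives 681 kept their direction. Some of these, such as those for the adjusted p taken alone, reuse the main fit and could not turn. With raw library totals 43 of 43 group means moved by at most 1 SD. The TMM factors of the separate fits were 0.922 to 1.055, so little movement was possible. DESeq2's Wald test called 1 member between the preleukaemic groups, 1 in model 2 and 3 for the difference between the models (Vwf, Itga2b and Itgb3). Fitting only the compared groups left 1 member between the TgSpi1FA-/- groups. In TgSpi1FA-/- leukaemic against TgSpi1FA+/+ preleukaemic cells, the second table left 0. For the other platelet lists (alternatives chosen after seeing the data), DESeq2 called 22 and 16 genes in TgSpi1FA-/- leukaemic against TgSpi1FA-/- and TgSpi1FA+/+ preleukaemic cells, 6 between the preleukaemic groups, 10 in model 2 and 19 between the models. In TgSpi1FA-/- leukaemic against TgSpi1FA+/+ preleukaemic cells, preleukemic_445 and preleukemic_479 taken as 1 library gave 1 call, and 4 came from the second table. Between the models, no filter gave 3. Over all genes DESeq2 called 3099, 256, 2245, 470 and 2037 in the 5 comparisons, against 1782, 1, 939, 0 and 673. No filter, DESeq2's size factors and its Wald test moved the median of all genes by up to 0.12, 0.105 and 0.17.

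Reversals were -0.0096 for Spi1 between the preleukaemic groups with preleukemic_445 and preleukemic_479 as 1 library, 3.04 for Ppbp in the second table, and 0.0468 (size factors), 0.0019 (no filter) and 0.0464 (DESeq2) for Gp5 between the models, where the value was -0.01. The cause was not tested.

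With each mouse left out, 1 to 3 members were called between the TgSpi1FA-/- groups, 0 to 2 against TgSpi1FA+/+ preleukaemic cells and 0 to 2 between the models. Gp1bb was among the calls without leukemic_26, where it passed the filter through leukemic_28 and leukemic_39 alone. With no count in any preleukaemic library of model 1 it could only be called higher, and its reads cannot be assigned with certainty. The other lists gave 4 to 15, 0 to 11 and 0 to 8 calls, and 0 to 1 between the preleukaemic groups. Log2 fold changes that turned between the TgSpi1FA-/- groups ranged from -2.24 to 1.34 for Pf4, -0.0243 to 0.88 for Gp1ba and -1.30 to 5.43 for Ppbp. Between the preleukaemic groups they ranged from -0.17 to 0.90 for Gp1ba and -0.11 to 0.31 for Spi1. In model 2 the ranges were -1.89 to 0.56 for Itga2b, -0.47 to 0.58 for Pf4, -0.22 to 0.85 for Gp9 and -0.65 to 0.48 for Gfi1b. Between the models they were -2.40 to 1.22 for Pf4, -1.92 to 0.50 for Gp5, -0.14 to 2.43 for Gp9 and -0.18 to 7.496 for Ppbp. Vwf had as few as 4 counts in a library, and 3 or 4 mice per group limit what could be detected.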
